A study of Mus musculus with 5 samples.

Results

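Mt1, Mt2, Slc30a1, Slc30a2, Slc39a5 and Slc39a14 are 6 mouse genes that bind or move zinc. They were taken by symbol from 23284 genes counted in each library, and all 6 were found. They were set between Arid1afl/fl;p48-Cre mice (3 knockout libraries) and p48-Cre mice (2 control libraries), all C57BL/6 at 8 weeks of age. Every library was labelled as primary acinar cells of the pancreas, isolated by digestion of the tissue and kept briefly in serum-containing medium before total RNA was taken. Both groups carried the Cre recombinase of the p48 locus. This locus encodes the transcription factor Ptf1a, which is active in progenitors of the developing pancreas, so the deletion of Arid1a need not be limited to acinar cells. Arid1a encodes a subunit of the SWI/SNF chromatin remodelling complex. Libraries carry a replicate number, but no label ties them to separate mice. P-values therefore set the difference between groups only against the spread between libraries, estimated in part over all genes. That spread can be technical variation.

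The exocrine pancreas is rich in zinc, which its acinar cells secrete with the digestive enzymes, and the carboxypeptidases among these enzymes need zinc in their active site. Metallothioneins are small cysteine-rich proteins that hold zinc and copper in the cytosol. Their genes are switched on by metals through the sensor Mtf1 and also by glucocorticoids, cytokines and oxidative stress. Transporters of the Slc30a family move zinc out of the cytosol, across the cell membrane or into vesicles, and those of the Slc39a family move it into the cytosol.

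The metallothionein genes Mt1 and Mt2 lie next to each other on chromosome 8, with 0 annotated genes between them. Their start regions and that of the zinc exporter Slc30a1 are shown because they hold copies of the core of the metal response element, the motif that Mtf1 binds. Each window holds 250 bases before and 50 bases from the annotated transcript start, from RefSeq on build GRCm38.p6, plus strand. That build is later than mm9, which the submitters name. Capitals mark matches to the core, TGCACNC or TGCGCNC, on either strand.
Mt1, chr8:94178839-94179138: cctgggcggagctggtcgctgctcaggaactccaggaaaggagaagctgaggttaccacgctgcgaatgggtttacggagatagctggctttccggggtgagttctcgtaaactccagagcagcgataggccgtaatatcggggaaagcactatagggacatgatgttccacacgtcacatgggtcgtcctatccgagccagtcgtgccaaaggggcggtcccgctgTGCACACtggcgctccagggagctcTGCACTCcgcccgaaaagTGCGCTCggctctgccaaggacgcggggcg
Mt2, chr8:94172368-94172667: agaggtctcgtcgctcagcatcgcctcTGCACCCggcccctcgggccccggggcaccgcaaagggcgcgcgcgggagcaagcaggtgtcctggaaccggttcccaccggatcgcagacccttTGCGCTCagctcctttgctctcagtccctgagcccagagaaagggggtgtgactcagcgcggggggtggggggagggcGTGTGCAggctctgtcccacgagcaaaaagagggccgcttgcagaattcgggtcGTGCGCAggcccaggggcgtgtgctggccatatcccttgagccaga
Slc30a1, chr1:191906531-191906830: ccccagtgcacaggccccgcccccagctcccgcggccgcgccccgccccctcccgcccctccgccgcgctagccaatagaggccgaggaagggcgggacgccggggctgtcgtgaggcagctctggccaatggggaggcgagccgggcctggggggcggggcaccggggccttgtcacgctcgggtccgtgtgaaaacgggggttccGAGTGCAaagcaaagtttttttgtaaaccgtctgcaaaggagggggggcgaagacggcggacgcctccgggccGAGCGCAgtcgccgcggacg
The Mt2 window held 4 matches, the Mt1 window 3 and the Slc30a1 window 2. Among 32851 promoter windows of the same length, 25.7% held at least 1 match, 7.11% held 2 or more and 1.97% held 3 or more. The first base of the annotated transcript is 1 and the base before it -1. Where transcription starts in these cells was not measured, so positions hold for the annotated start only. In Mt1 the matches began at bases -23, 3 and 21 from that start, and in Mt2 at -223, -128, -50 and 5. The antioxidant response core TGACNNNGC, the motif of the factor Nrf2, matched once in Mt2 at base -79 and once in Slc30a1 at base -82, against 12.4% of all windows with a match on either strand. The palindrome TTCNNNGAA, bound by STAT factors, matched in 0 of these 3 windows and in 8.3% of all. No motif overlapped another in the 3 windows, and a match is a run of letters, not a measured binding site. Of the other transporters, Slc30a2 had 1 window in the table with 2 metal response matches and Slc39a5 had 2 windows with 1 and 0 matches. Slc39a14 was not matched.

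**Figure D1:**
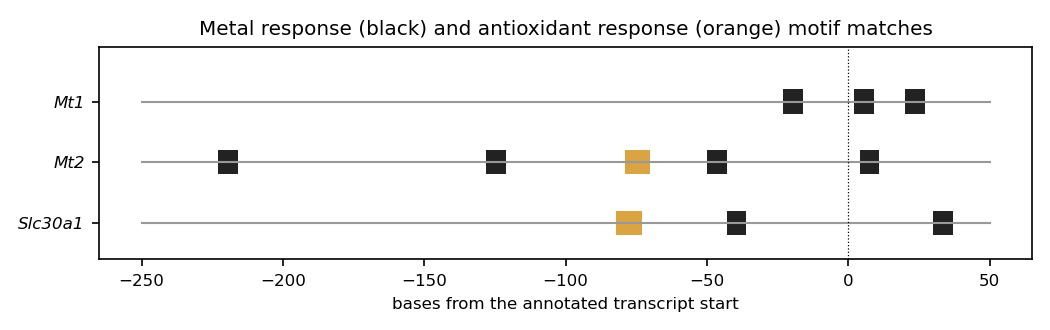
Motif matches in the start regions of Mt1, Mt2 and Slc30a1. The x axis gives bases from the annotated transcript start. Black blocks mark the metal response core (3 in Mt1, 4 in Mt2, 2 in Slc30a1) and orange blocks the antioxidant response core (1 each in Mt2 and Slc30a1), drawn to scale.

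The libraries differed in depth along with genotype. In all, 3471701 to 4049215 counts came from each knockout, against 291677 and 589798 from controls 1 and 2. Of these, 6.78% to 10.9% in knockouts and 72.6% and 82.2% in controls fell on Rn45s, the precursor of ribosomal RNA, and 0.535% to 0.926% in knockouts and 4.23% and 5.61% in controls on Lars2. Levels are given as CPM, counts scaled to a library of 1000000 counts, out of those left when Rn45s and Lars2 are set aside, which were 3155357 to 3568906 in knockouts, against 67514 and 72006 in controls. A floor of 3 counts equals at most 0.951 CPM in a knockout library, against 44.4 and 41.7 CPM in controls 1 and 2. Depth, the share of Rn45s and genotype cannot be told apart in any comparison given here, and intervals and floors cover counting error only. In bulk RNA, fewer cells of a type and less RNA per cell cannot be told apart either. Arid1a itself had 44, 121 and 42 counts in knockouts 1 to 3, against 0 and 3 in controls 1 and 2, so its loss could not be checked at this depth. Exons that the deletion leaves intact also count towards the gene.

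Stray counts were gauged from 1451 receptor genes of smell (olfactory and vomeronasal), which acinar cells should not use. Controls 1 and 2 had a count for 25 and 13 of them, and the highest receptor gene reached 11 and 21 counts, or 163 and 292 CPM. The highest receptor gene of any knockout library had 7 counts, or 2.09 CPM. Single receptor genes thus reached the level of several zinc genes in the controls, although most receptor genes had no count there. Acinar markers (11 of 12 with counts, Amy2a5 at 0 in all 5 libraries) summed to 409090 to 452570 CPM in knockouts and 430000 and 468700 CPM in controls. Ptf1a had no control count. Of the 11 tested markers, edgeR's quasi-likelihood test called the elastase Cela2a and the lipase Cel lower and 0 higher. Over all tested genes it called 1.6% lower and 0.193% higher. All knockouts lay below both controls in 4 of the 12 markers and above both in 3, against 11.2% and 35.6% of tested genes. Genes with no control count enter the 35.6%, whereas 10 of the 11 tested markers had a control count. Cela2a was at 7869, 9560 and 9341 CPM in knockouts 1 to 3, against 41814 and 62814 CPM in controls 1 and 2.

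The metallothionein Mt1 had the highest level of the 6 genes in every library but control 1, where Mt2 was higher, and stood higher in all 3 knockout libraries than in both controls. Mt1 was at 2831, 2482 and 1719 CPM in knockouts 1 to 3, against 178 and 556 CPM in controls 1 and 2. The lowest knockout lay 3.09-fold above the highest control, so the groups did not overlap. The controls themselves stood 3.13-fold apart, with 12 and 40 counts and exact 95% intervals of 91.8 to 310 and 397 to 756 CPM that did not meet. Means were 2344 ± 568 CPM in knockouts (SD, n = 3) and 367 ± 267 CPM in controls (SD, n = 2), and the ratio of pooled shares was 6.27 with an exact 95% interval of 4.78 to 8.4. The fitted log2 fold change was 2.67 ± 0.87 (SE), higher in 3 of 3 knockouts, and missed the threshold (adjusted p = 0.0772, edgeR's quasi-likelihood test with Benjamini-Hochberg adjustment). The call depended on the processing. Mt1 passed in 4 of 15 alternatives, among them DESeq2 (adjusted p = 4.95e-05), TMM factors (edgeR, 0.0496) and the fit without knockout 3 (edgeR, 0.0467). The last of the 4, without control 2, leaves 1 control. Mt1 did not pass with TMM factors on all rows (edgeR, adjusted p = 0.062), RLE factors (edgeR, 0.0793) or upper quartile factors (edgeR, 0.204). Nor did it pass with limma-voom (adjusted p = 0.138), with a replicate block (edgeR, 0.777) or without knockout 1 (edgeR, 0.866). The estimate was above 0 in 15 of 15 alternatives, between 2.08 and 4.68. The median of all genes moved as well, from 0.22 to 1.93 with TMM factors and 1.42 with DESeq2, where Mt1 was at 4.68 and 4.20. Without control 2 Mt1 was at 3.72 and the median at 5.57, but over 10009 genes tested instead of 8291. That median is therefore not a shift of the same genes, and the 3.72 cannot be set against it. In the fit reported, genes with a control count had a median of -1.0.

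Mt2, the neighbouring metallothionein, was also above both controls in each knockout library, by a smaller margin. Mt2 was at 639, 447 and 1285 CPM in knockouts 1 to 3, against 311 and 97.2 CPM in controls 1 and 2. The lowest knockout, knockout 2, lay 1.44-fold above the highest control, control 1, whose exact 95% interval of 193 to 475 CPM covers the level of knockout 2. Means were 791 ± 439 CPM in knockouts (SD, n = 3) and 204 ± 151 CPM in controls (SD, n = 2), with a pooled ratio of 3.92 (exact 95% interval 2.71 to 5.9). The log2 fold change of 1.96 ± 1.00 (SE) did not pass (adjusted p = 0.393, edgeR's quasi-likelihood test), but passed with DESeq2 (adjusted p = 0.00733). Over 15 alternatives the estimate lay between 1.35 and 4.38. The highest receptor gene of the same library bears on these levels. In control 1 both Mt1 and Mt2, with 12 and 21 counts, were above its 11 counts, and in control 2 Mt1 with 40 counts was above and Mt2 with 7 below its 21 counts. The part of stray counts in the metallothionein levels was not tested.

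**Figure D2:**
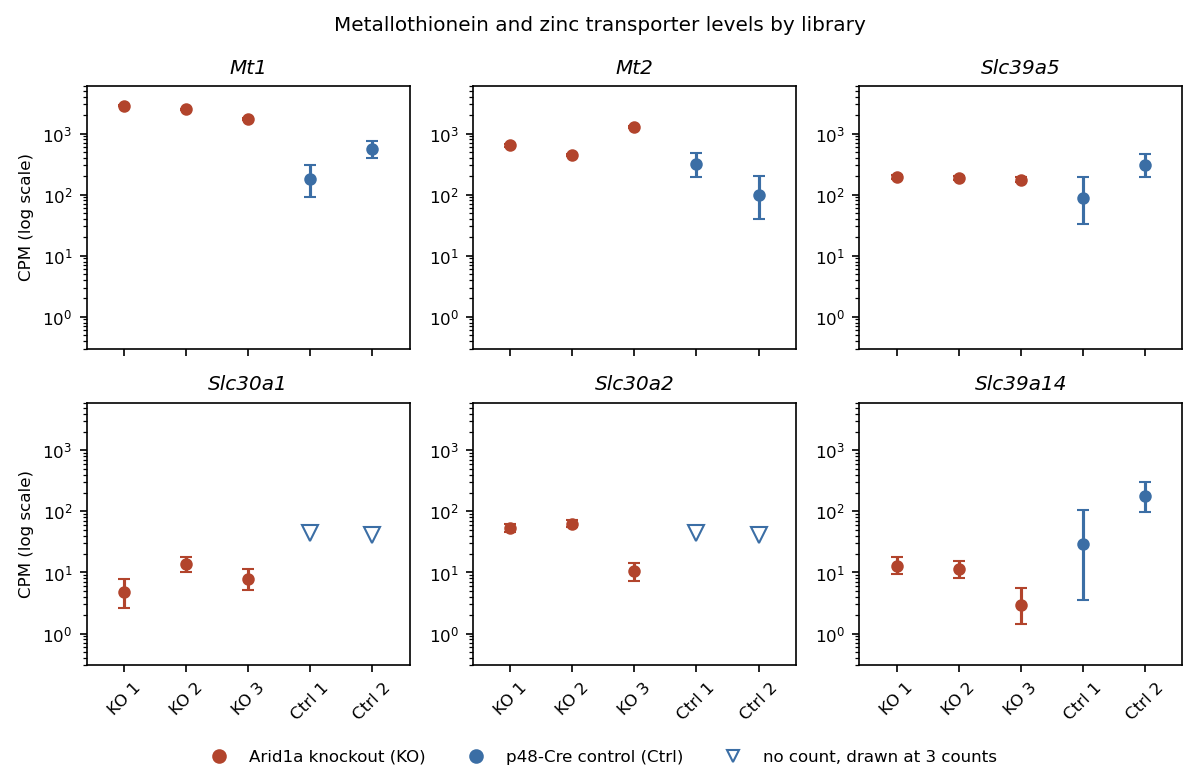
Levels of the 6 genes in each library, in CPM on a log axis, knockout libraries (red) left of control libraries (blue). Bars are exact 95% counting intervals, and open triangles mark libraries with no count, drawn at 3 counts. Mt1 lies at 1719 to 2831 CPM in knockouts and 178 and 556 CPM in controls, Slc39a5 overlaps, and Slc39a14 lies lower in the knockouts.

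The balance of Mt1 and Mt2 differed between libraries, while their sum varied less within a group than either gene alone. Mt2 made up 18.4%, 15.3% and 42.8% of the summed Mt1 and Mt2 counts in knockouts 1 to 3, against 63.6% and 14.9% in controls 1 and 2. The exact 95% intervals were 41.8% to 43.8% for knockout 3, 45.1% to 79.6% for control 1 and 6.2% to 28.3% for control 2. Knockout 3 and control 1 thus had a larger Mt2 share than the other libraries, and the groups overlapped. As a ratio, Mt2 to Mt1 averaged 0.385 ± 0.315 in knockouts (SD, n = 3) and 0.963 ± 1.11 in controls (SD, n = 2), a difference within the spread of the libraries. This ratio within a library does not change with scaling, and its difference between groups was not tested. The sum of both genes was 3470, 2930 and 3004 CPM in knockouts 1 to 3, against 489 and 653 CPM in controls 1 and 2. Within knockouts the highest sum was 1.18-fold the lowest, where the highest and lowest Mt1 levels stood 1.65-fold apart and the Mt2 levels 2.87-fold. Within controls the sums stood 1.34-fold apart, where Mt1 stood 3.13-fold and Mt2 3.2-fold apart. The pooled ratio of the sum between groups was 5.45 (exact 95% interval 4.38 to 6.87), and of the counts left without Rn45s and Lars2 the metallothioneins took 0.293% to 0.347% in knockouts, against 0.0489% and 0.0653% in controls.

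**Figure D3:**
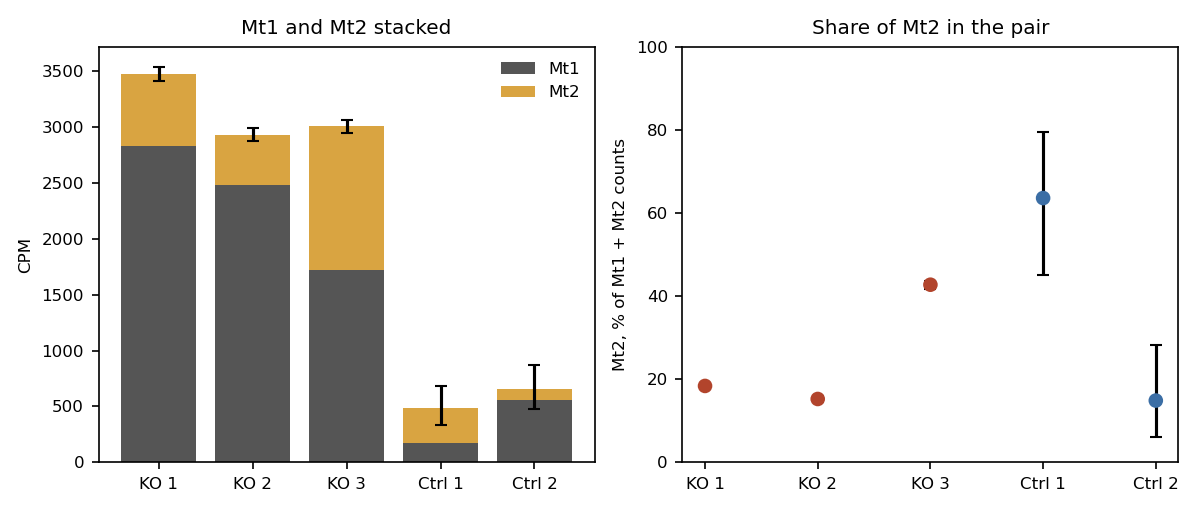
Left, Mt1 (grey) and Mt2 (gold) stacked in CPM, with the exact 95% counting interval of their sum. Right, the Mt2 share of their summed counts in percent, with its exact 95% interval. Sums are 2930 to 3470 CPM in knockouts and 489 and 653 CPM in controls, and the Mt2 share is highest in control 1 and, among knockouts, in knockout 3.

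Reads of Mt1 shared no 50-base word with another gene of the GENCODE M21 annotation, Mt2 included, so its count did not draw on a near-identical copy there. Of the 50-base words of Mt2, 45.5% were shared with Gm45774, an antisense gene model whose exons overlap it and which has no row in the tables. The library kit does not mark strand, so reads of Mt2 and Gm45774 cannot be told apart. Neither the brain metallothionein Mt3 nor Mt4, which is known from stratified squamous epithelia, was detected in the controls. Mt3 had 12 counts in knockout 2 and 0 elsewhere, and Mt4 had 0 counts in all 5 libraries. Mtf1, the metal sensor, had 12, 27 and 6 counts (3.8, 7.57 and 1.79 CPM) in knockouts 1 to 3, against 7 and 0 counts (104 and 0 CPM) in controls 1 and 2. The control level of Mtf1 comes from control 1 alone and is below the 163 CPM of its highest receptor gene, so no direction can be read from it.

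Among 133 genes with at least 10 counts in each of the 5 libraries, Mt1 was the only one of the 6 genes. Ordered by the ratio of pooled shares, knockout over control, Mt1 came in place 2 of the 133, after the trypsinogen Try10, and the median ratio was 0.54. By their log2 CPM profile, centred on its mean over the 5 libraries, the genes closest to Mt1 were Nupr1 and Reg1, each with a Euclidean distance of 1.23. Nupr1, a stress-induced chromatin-binding protein of the exocrine pancreas, was at 6001, 6974 and 2571 CPM in knockouts 1 to 3, against 799.8 and 1903 CPM in controls 1 and 2. Like Mt1, it was lowest among knockouts in knockout 3 and lower in control 1 than in control 2. Reg1, a secreted lectin of acinar cells, was at 35932, 22509 and 20262 CPM in knockouts, against 5006 and 6874 CPM in controls. These profiles are descriptions over libraries whose depth follows genotype.

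The zinc exporters Slc30a1 and Slc30a2 had no count in either control. Slc30a2, which loads zinc into secretory vesicles, was at 54.2, 63.0 and 10.5 CPM in knockouts 1 to 3, from 171, 225 and 35 counts, so knockout 3 stood well below the others. Its mean of 42.6 ± 28.2 CPM (SD, n = 3) was 1.98-fold the floor of 3 counts over both controls, which equals 21.5 CPM. The mean lay between the floors of the single controls, 44.4 CPM in control 1 and 41.7 CPM in control 2. At the pooled knockout share 5.97 counts would fall in both controls together, and 0 were found. The lower limit of the exact 95% interval of the ratio was 1.61, and Slc30a2 did not pass the test (adjusted p = 0.378, edgeR's quasi-likelihood test, against 0.0185 with DESeq2). Knockout 3 alone, at 10.5 CPM, was below the floor over both controls. Slc30a1, the exporter of the cell membrane and a known target of Mtf1, was at 4.75, 13.7 and 7.77 CPM in knockouts 1 to 3, from 15, 49 and 26 counts. All these levels lie under the control floor, 1.25 counts would fall in both controls at the pooled knockout share, and a difference in Slc30a1 was not detectable at this depth (adjusted p = 0.583, edgeR). Of the 50-base words of Slc30a1, 8.08% were shared with 1700034H15Rik, an antisense gene model with 3, 1 and 0 counts in knockouts and 0 and 0 in controls.

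The zinc importer Slc39a5, which sits in the basolateral membrane of acinar cells and enterocytes, was the most even of the 6 genes among knockouts. Slc39a5 was at 196, 188 and 176 CPM in knockouts 1 to 3, against 88.9 and 306 CPM in controls 1 and 2. The knockout libraries lay between the controls, which stood 3.44-fold apart on 6 and 22 counts. Means were 187 ± 9.64 CPM in knockouts (SD, n = 3) and 197 ± 153 CPM in controls (SD, n = 2), and pooled counts gave a ratio of 0.929 (exact 95% interval 0.641 to 1.4). The log2 fold change of -0.08 ± 1.08 (SE; adjusted p = 0.973, edgeR) leaves room for a change in either direction, and its sign turned to positive with TMM and RLE factors (2.02 and 1.56), which moved the median over all genes as well.

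Slc39a14, which carries zinc, iron and manganese into the cell and is known as an interleukin-6 response gene of the liver, was the only one of the 6 below both controls in each knockout. Slc39a14 was at 13.0, 11.2 and 2.99 CPM in knockouts 1 to 3, against 29.6 and 181 CPM in controls 1 and 2, from 41, 40 and 10 counts against 2 and 13. The lowest control stood 2.28-fold above the highest knockout, but its 2 counts have an exact 95% interval of 3.59 to 107 CPM that covers the levels of knockouts 1 and 2. The pooled ratio was 0.0841 (exact 95% interval 0.0484 to 0.156), and the log2 fold change of -3.53 ± 1.42 (SE) did not pass (adjusted p = 0.200, edgeR's quasi-likelihood test). Control 2 set the size of the difference, with an adjusted p of 0.0305 (edgeR) without control 1 and 0.807 without control 2. Both control counts were below the highest receptor gene of the same library, with 11 counts in control 1 and 21 in control 2. The part of stray counts in the lower level of Slc39a14 was not tested. The estimate was below 0 in 14 of 14 alternatives, between -4.31 and -1.70.

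Levels were also compared between the genes, per kilobase of the principal transcript in GENCODE M21. Mt1, with 549 bases, averaged 4270 ± 1036 CPM per kilobase in knockouts (SD, n = 3) and 668 ± 487 in controls (SD, n = 2). Mt2, with 511 bases, averaged 1547 ± 859 CPM per kilobase in knockouts and 399 ± 296 in controls. The knockout ranges of Mt1 (3132 to 5156) and Mt2 (876 to 2515) did not overlap, whereas their control ranges (324 to 1012 and 190 to 609) did. Slc39a5 followed at 92.1 ± 4.76 CPM per kilobase in knockouts and 97.4 ± 75.7 in controls, and Slc30a2 at 13.5 ± 8.93 in knockouts with no control count. Slc39a14, at 1.84 ± 1.08 CPM per kilobase in knockouts and 21.3 ± 21.7 in controls, and Slc30a1, at 1.67 ± 0.871 in knockouts with no control count, overlapped in the knockouts. The order by level in knockouts thus ran Mt1, Mt2, Slc39a5, Slc30a2 and then Slc39a14 with Slc30a1.

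No member of the 6 genes was called in either direction at an adjusted p under 0.05 by edgeR or by limma-voom, and DESeq2 called 3 higher (Mt1, Mt2 and Slc30a2). At an unadjusted p under 0.05 edgeR had 2 higher and 1 lower, against 1.95% higher and 11% lower over all genes. Over all 8291 genes tested, edgeR called 16 higher (0.193%) and 133 lower (1.6%), or 1.8% in either direction, with 12.9% at an unadjusted p under 0.05, and DESeq2 called 18.3% higher and 7.54% lower of the 4112 genes with an adjusted p. All 6 genes passed the low-count filter, Slc30a1 and Slc30a2 through the knockouts alone. Of the 6, 4 had all knockouts above both controls (35.6% of all tested genes), of which Slc30a1 and Slc30a2 had no control count. A further 1 had all knockouts below both controls (11.2% of tested genes). Of the 8291 tested genes, 2775 had no control count, and such a gene lies above both controls whenever each knockout has a count. The 35.6% is therefore not a like for like share for Mt1 and Mt2, which had control counts. Among the 133 genes with at least 10 counts in each library, Mt1 included, 20 had all knockouts above both controls. The choice of these genes was made with results known, so nothing is read from these counts.

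**Figure D4:**
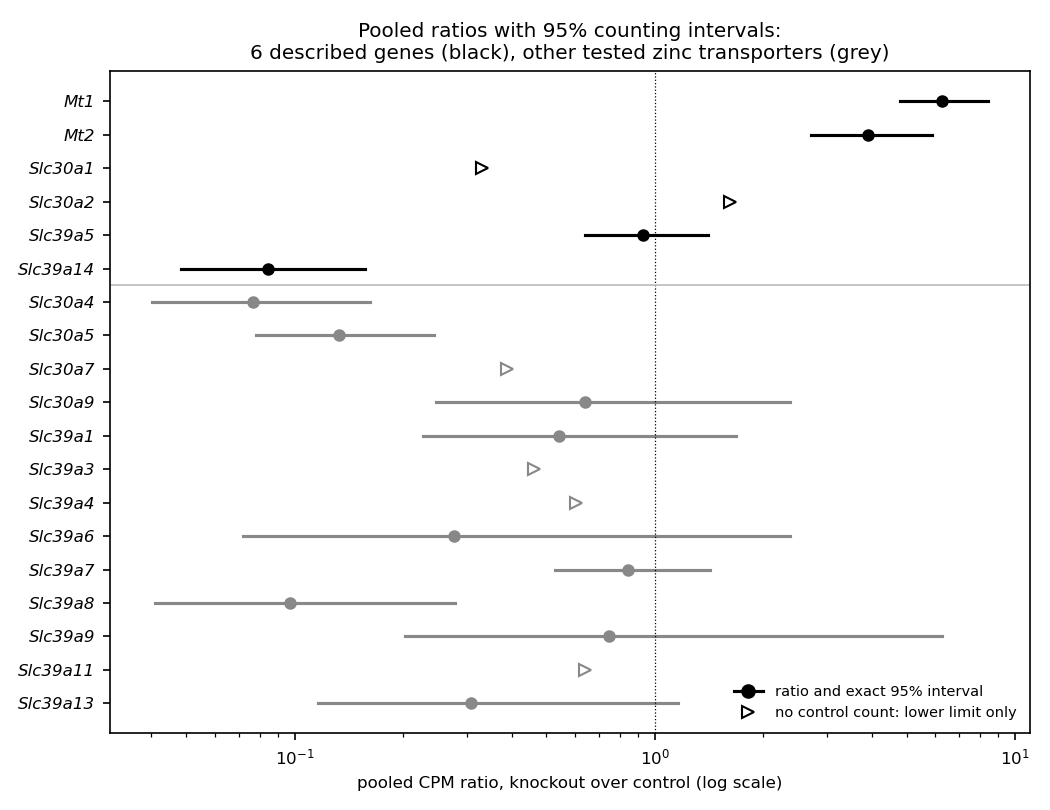
Ratio of pooled CPM, knockout over control, on a log axis for the 6 genes (black) and the other 13 tested zinc transporters (grey). Lines are exact 95% counting intervals, and open arrowheads give the lower limit for genes with no control count. Mt1 (6.27) and Mt2 (3.92) lie right of 1, Slc39a14 (0.0841) left of it, and Slc39a5 (0.929) spans it.

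The wider zinc transporter families held 24 genes (Slc30a1 to Slc30a10 and Slc39a1 to Slc39a14), of which 17 were tested. None was called higher or lower by edgeR or limma-voom, and the lowest adjusted p was 0.185 (edgeR). At an unadjusted p under 0.05 there were 1 higher and 4 lower (edgeR), against 1.95% higher and 11% lower over all genes. DESeq2 called 1 higher (Slc30a2) and 0 lower, against 18.3% and 7.54% over all genes. Among the 11 tested members with a control count the median log2 fold change was -1.71, against -1.0 over the 5516 tested genes with a control count. Where a gene lacked control counts and its control level was put at the floor instead, the median log2 ratio of CPM was -0.89 for the families and -1.14 for all tested genes. The summed level of the families was 471, 651 and 367 CPM in knockouts 1 to 3, against 889 and 764 CPM in controls 1 and 2. Receptor genes, as a background, summed to 11.7 to 32.6 CPM in knockouts and 1511 and 1417 CPM in controls.

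Slc39a7, which releases zinc from the endoplasmic reticulum, followed Slc39a5 as an abundant member of these families. Slc39a7 was at 84.3, 137 and 100.1 CPM in knockouts 1 to 3, against 222 and 41.7 CPM in controls 1 and 2, so the groups overlapped. Slc30a5, which loads zinc into the early secretory pathway, was at 14.9, 20.7 and 6.88 CPM in knockouts, against 148 and 69.4 CPM in controls, from 10 and 5 control counts. Slc30a5 did not pass the test (adjusted p = 0.325, edgeR), and 11.2% of tested genes had all knockouts below both controls. Both of its control counts were below those of the highest receptor gene of the same library, 11 in control 1 and 21 in control 2. Slc30a8, the zinc transporter of insulin granules and an islet marker, had 0, 2 and 0 counts in knockouts and 0 and 0 in controls.

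Genes under metal control were compared next. Of 12 further genes of the metal response list (Mtf1, known or proposed Mtf1 targets and related genes), 8 were tested and edgeR called 0, with 0 higher and 1 lower (Mtf1) at an unadjusted p under 0.05. With no low-count filter, or with 1 CPM in 2 libraries, edgeR called 1 gene of the list lower, the transporter Slc39a10. Limma-voom called 0 of this list, and DESeq2 called Ndrg1 higher besides Mt1 and Mt2, against 18.3% higher over all genes. The abundant members were Csrp1, a cytoskeletal LIM protein, and Sepw1, a selenoprotein. Csrp1 was at 253, 385 and 38.3 CPM in knockouts 1 to 3, against 88.9 and 236 CPM in controls 1 and 2. Sepw1 was at 91.3, 135 and 76.2 CPM in knockouts, against 163 and 97.2 CPM in controls. Both overlapped between groups.

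Of 19 copper and iron genes, 15 were tested, and edgeR and limma-voom called 0. At an unadjusted p under 0.05 edgeR had 0, and DESeq2 called 2 higher (Fth1 and Cox17), against 18.3% over all genes. The ferritin heavy chain Fth1 was at 681, 984 and 255 CPM in knockouts 1 to 3, against 459 and 181 CPM in controls 1 and 2. The ferritin light chain Ftl1 was at 447, 502 and 251 CPM in knockouts, against 341 and 0 CPM in controls. Both ferritins overlapped between groups and were lowest among knockouts in knockout 3, as were Mt1 and several other genes named here.

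Of 20 genes of glucocorticoid and cytokine signalling, which share inducers with the metallothioneins, 16 were tested and edgeR and limma-voom called 0. At an unadjusted p under 0.05 edgeR had 5 higher and 1 lower, against 1.95% and 11% over all genes, and DESeq2 called 6 higher (Dusp1, Fkbp5, Lcn2, Socs3, Stat3 and Tsc22d3), against its 18.3% over all genes. Their summed level was 705, 986 and 147 CPM in knockouts 1 to 3, against 415 and 181 CPM in controls 1 and 2, so knockout 3 lay below both controls. Lcn2, an iron-binding acute-phase protein, was at 237, 130 and 17.0 CPM in knockouts, against 14.8 and 0 CPM in controls. Dusp1, a phosphatase induced by stress and glucocorticoids, was at 102, 228 and 11.96 CPM in knockouts, against 44.4 and 0 CPM in controls. Knockout 3, with the highest Mt2 level, had the lowest levels of Lcn2 and Dusp1 among knockouts. The same held for several other genes named here, such as Slc30a2, Csrp1 and Fth1, while Slc30a1 and Slc39a7 were lowest in knockout 1. Knockout 3 also had the fewest genes with a count, 12014 against 13244 and 15463 in knockouts 1 and 2. Low levels in knockout 3 are thus not particular to Lcn2 and Dusp1.

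Markers of other cell types were sparse in the controls. Duct markers, of which 4 of 12 had no control count, summed to 2474, 5007 and 770 CPM in knockouts 1 to 3, against 1600 and 930 CPM in controls 1 and 2. Islet markers, with 9 of 12 at 0 in both controls, summed to 178, 991 and 216 CPM in knockouts, against 104 and 708 CPM in controls (Gcg, Sst and Slc30a8 are among those at 0). Most markers of the remaining types were also at 0 in both controls. Macrophage markers, 7 of 11 at 0 there, summed to 122, 423 and 112 CPM in knockouts, against 207 and 69.4 CPM in controls. Fibroblast markers, 7 of 12 at 0 there, summed to 134, 319 and 56.2 CPM in knockouts, against 296 and 306 CPM in controls. Endothelial markers, 9 of 10 at 0 there, summed to 223, 281 and 66.1 CPM in knockouts, against 0 and 83.3 CPM in controls. In all 5 lists the summed levels of the groups overlapped. For the endothelial list this rests on Eng alone, with 6 counts in control 2, and its pooled ratio was 4.45 (exact 95% interval 2.04 to 12.1), against 2.24 (1.93 to 2.61) for duct markers. All knockouts were above both controls in 7 of 10 endothelial, 6 of 12 islet and 6 of 12 fibroblast markers. The same held for 5 of 11 macrophage and 2 of 12 duct markers, against 35.6% of all tested genes. Each of the markers counted here had no control count, and not all listed markers were tested. All knockouts were below both controls in 1 duct marker and in no endothelial, islet, fibroblast or macrophage marker, against 11.2% of tested genes. The part of other cells in the metallothionein levels was not tested.

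**Figure D5:**
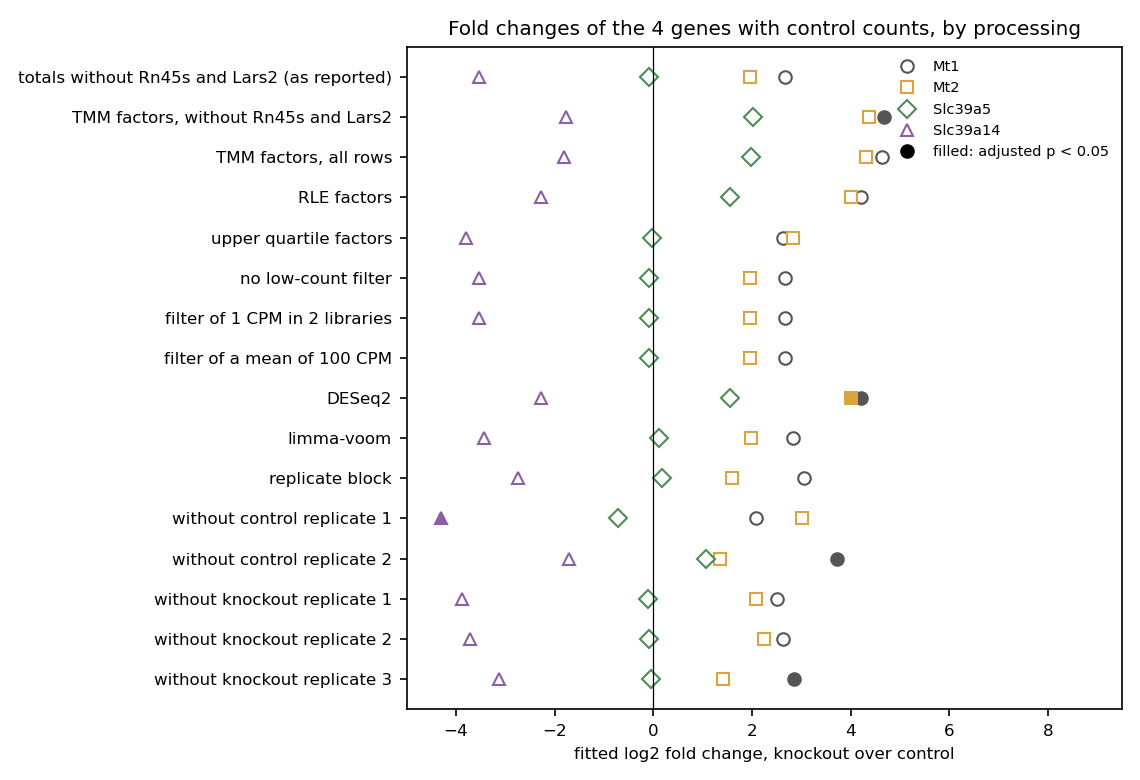
Fitted log2 fold changes, knockout over control, of the 4 genes with control counts under each way of processing, with filled symbols at an adjusted p under 0.05. Mt1 lies between 2.08 and 4.68 and is filled in 4 alternatives, Mt2 lies between 1.35 and 4.38, Slc39a14 stays below 0, and Slc39a5 lies on both sides of 0.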

How the data were processed

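Libraries were made from bead-captured mRNA with the TruSeq RNA v2 kit, per the labels' protocols. This kit does not mark strand. The authors deposited 5 tables, 1 per library, of whole-number read counts per gene symbol, not normalized. Build mm9 and, without roles, HTSeq 0.9.1, TopHat2 2.1.1, Cuffdiff 2.2.1.5 and Cuffnorm 2.2.1.2 appear in the submitters' processing notes. How strand and multi-mapping reads were counted is not given in the sources used here. Rows Rn45s and Lars2 were left out and library size was the remaining total, with no further factor. This differs from TMM factors, which moved the median log2 fold change of all genes to 1.93. edgeR 4.0.16 in R 4.3.3 (filterByExpr, robust quasi-likelihood fit, group only, two-sided) tested 8291 genes, called at an adjusted p under 0.05. A zinc gene with no control count has a fitted fold change that depends on the prior count and is not printed. Intervals are exact (Clopper-Pearson) at 95% in scipy 1.17.1. DESeq2 1.42.0 left 4179 adjusted p-values as NA. On data simulated at these depths, with 1 spread shared by all genes, the fit recovered the median fold changes put in and called no unchanged gene. Stray counts and differences in spread between genes were not simulated, so the absence of false calls need not hold here. The fit called few of the changed genes, fewest among those raised in knockouts. A missing call therefore says little about the size of a change.

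The 6 genes, the gene lists and the tests were chosen with earlier results of these data known. Zinc family genes were named with a mean of at least 50 CPM or a call, list genes as up to 3 called or else the 2 most abundant, and the 3 nearest profiles to each of the 6 genes with at least 10 counts in each library, of which 1 is not reported here. Mt3, Mt4, Mtf1, Slc30a8 and Arid1a were fixed. Try10, Ndrg1, Cox17, Fkbp5, Socs3, Stat3, Tsc22d3, Slc39a10, Slc30a4 and the marker genes Cela2a, Cel and Eng were named after their values were seen. Alternatives were other scalings, filters, tests, a replicate block and each library left out. Transcript lengths and 50-base words came from GENCODE M21, and promoters from RefSeq, of a later build.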

Additional observations from a re-analysis of the deposited data

How the results depend on the processing

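The 2 control libraries, with 139520 counts in all outside Rn45s and Lars2, limit every result. Calls over all genes numbered 16 higher and 133 lower. They became 147 and 71 with TMM factors, 5 and 27 with TMM factors on all rows, 753 and 310 with DESeq2, and 4 and 5 with the replicate block, while limma-voom called 0 higher (27 at an unadjusted p under 0.05). Lower calls became 81 with RLE factors, 354 with upper quartile factors, 898 with no low-count filter, 388 with 1 CPM in 2 libraries and 17 with a mean of 100 CPM. With a library left out, higher calls ran from 0 (without knockout 1) to 19 and lower calls from 4 (without knockout 1) to 378 (without control 1). Relative to the fit reported, the all-gene median moved by 1.70 and 1.82 with the 2 TMM factors, 1.26 with RLE, 0.11 with upper quartile factors, 1.19 with DESeq2 and -1.04 with limma-voom. The median stood at 6.06 without control 1 and 5.57 without control 2. These were taken over 10024 and 10009 genes tested, against 8291 in the fit reported, so they are not shifts of the same genes. Among the 6 genes, 0 were called. TMM factors called 1 higher (Mt1) and DESeq2 3. With a library left out, 0 to 1 were called higher and 0 to 1 lower (Slc39a14, without control 1). In the zinc families DESeq2 called 1 higher, and 1 was called lower with upper quartile factors (Slc30a4), with no filter and with 1 CPM in 2 libraries (Slc39a10), and 0 to 1 with a library left out. The log2 fold change of Slc39a5 turned positive with TMM factors (2.02), on all rows (1.99), with RLE (1.56), DESeq2 (1.56), limma-voom (0.11) and the replicate block (0.17), and ran from -0.71 to 1.07 with a library left out, without control 2 at the top. The causes of these changes were not tested beyond the medians given. The Mt2 to Mt1 ratio averaged 0.203 to 0.487 in knockouts and 0.175 to 1.75 in controls with a library left out. Deviations from the group mean correlated at -0.0862 for number 1 and -0.0133 for number 2 over 301 genes. With 2 controls, the deviations of one mirror those of the other, so these values cannot decide whether replicate numbers pair the libraries. With the block, adjusted p-values of the 6 genes were 0.777 or higher. The fold change of Slc30a1 could not be fitted without knockout 2, without knockout 3 or with a mean of 100 CPM, nor those of Slc30a2 and Slc39a14 with the last, because they fell under the filter.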
